A study of Homo sapiens with 18 samples.

Results

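Late gain hybrid regions are places in the genome of HCT116 cells, a human colorectal carcinoma line, where a DNA-RNA hybrid peak was called after 60 min of camptothecin (CPT) and not earlier. A region was a member when a peak was called in both 60 min replicates and no peak overlapped it in either nontreated (NT) list or either 5 min list. Members were thus chosen by the presence and absence of called peaks. The rule found 4160 members among 28518 regions, or 14.6% of all regions. The study mapped hybrids by DRIP-seq, in which genomic DNA is cut with 5 restriction enzymes (Bsr GI, Ssp I, Hind III, Xba I and Eco RI) and hybrid-bearing fragments are precipitated with the S9.6 antibody. Cells were left untreated (NT) or exposed to 10 µM CPT for 5 min or for 60 min, with 2 biological replicates per condition, and all of them were the same unmodified line. For each condition and replicate there are 3 samples (the DRIP itself, a control DRIP whose DNA was first treated with RNase H, and the input), which makes 18 in all. Each biological replicate pooled parallel DRIP samples, and cells were lysed a short time after the drug was removed.

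An R loop is a DNA-RNA hybrid with the displaced DNA strand, and it forms mostly when a nascent transcript anneals back to its template behind RNA polymerase II (RNAPII). DNA topoisomerase I (Top1) relaxes the supercoils that a moving RNAPII generates, and negative supercoiling favours hybrids. CPT traps Top1 on nicked DNA as a cleavage complex (Top1cc), and RNase H removes hybrids by cutting their RNA strand, so peaks that remain after RNase H digestion are used as a control for the specificity of the antibody.

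The data were lists of called peaks, in which each peak carries its fold enrichment over input and a −log10 q value. A missing peak means a signal below the calling threshold and not the absence of a hybrid, and in bulk cells more cells with a hybrid cannot be told apart from more hybrid per cell. The lists grew with treatment and differed between replicates. They held 30314 (replicate 1) and 52967 (replicate 2) peaks in NT, 33852 and 56543 at 5 min, and 41668 and 72879 at 60 min. When every list was shortened to its 30314 peaks of highest fold enrichment, 2492 regions met the rule and 1695 (40.7%) of the 4160 members overlapped one of them. Peak lists measure neither expression nor cell identity, and the depth of the libraries is not given in them.

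The sequences under strong late gains show what the DNA that carried them looked like. The highest ranked late gains of the terminator and exon classes are shown, by the lower of their percentiles of fold enrichment in the 60 min lists, as 200 bases around the summit of the 60 min peak in replicate 2, read from GRCh37 (hg19) on the coding strand of the named gene. Runs of 3 or more G, the bases that favour R loops on the displaced strand, are in capitals. The class in each label is that of the midpoint of the region, which lies outside the window shown.
EFNB1 terminator window, chrX:68063371-68063570, plus strand: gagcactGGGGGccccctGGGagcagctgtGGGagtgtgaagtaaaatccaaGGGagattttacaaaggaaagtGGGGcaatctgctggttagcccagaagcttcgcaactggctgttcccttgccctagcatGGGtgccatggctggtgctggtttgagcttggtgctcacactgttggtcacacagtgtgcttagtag
NAGK exon, chr2:71298405-71298604, plus strand: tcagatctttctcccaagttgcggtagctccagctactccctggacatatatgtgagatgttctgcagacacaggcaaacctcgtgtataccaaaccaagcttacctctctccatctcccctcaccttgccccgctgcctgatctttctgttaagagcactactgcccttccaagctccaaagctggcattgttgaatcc

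These windows were of similar base composition, with 55.0% GC in EFNB1 and 50.5% in NAGK, but differed in their G runs. EFNB1 held 6 runs of G and 4 of C on the coding strand, while NAGK held no run of G and 5 of C.

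Late gains lay inside genes, downstream of the start and close to it. Of the 4160 regions, 2262 (54.4%, 95% Wilson interval 52.9 to 55.9) were centred on intron sequence that no promoter or terminator window covered, compared with 48.6% of stable gains (peaks in both replicates at 5 and at 60 min and none in NT, 1519 regions), 33.6% of constitutive regions (called in all 6 DRIP lists, 3719 regions) and 44.3% of all regions. Only 203 (4.88%) were intergenic, against 34.2% of transient gains, which had peaks in both 5 min replicates and none in NT or at 60 min, and 13.1% of all regions. A promoter window, taken as the 5′ untranslated region plus 10 kb upstream, held 981 (23.6%), a terminator window, taken as the 3′ untranslated region plus 10 kb downstream, held 614 (14.8%), and coding or other exon sequence held 100 (2.40%). These intervals cover counting error only, and no test was made over regions, which share libraries and chromosomes and are not replicates.

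Measured from the nearest start of a protein-coding gene, 1847 late gains (44.4%) lay 1 to 10 kb downstream of it and another 1036 (24.9%) lay 10 to 50 kb downstream. Within 1 kb of the start itself were 213 (5.12%), a smaller share than the 13.7% of stable gains, the 13.8% of constitutive regions and the 9.04% of all regions. The share 1 to 10 kb downstream was 47.9% for stable gains, 38.6% for constitutive regions, 29.2% for all regions and 3.43% for transient gains. Late gains were fewer at the start itself than beyond it.

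Among the 3073 late gains whose midpoint lay in a single gene, the median distance from the gene start was 8586 bp, with quartiles of 5211 and 14271 bp. The median was 4766 bp for stable gains, 6207 bp for constitutive regions, 10891 bp for all regions and 63433 bp for transient gains. As a share of gene length the late gain median was 0.185, so that 31.5% fell in the first 10% of the gene, 21.0% in the next 10% and 2.47% in the last 10%. Taken with the peaks of each 60 min list on their own in place of the joined regions, the median distance was 8667 bp in replicate 1 and 8600.5 bp in replicate 2.

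**Figure D1:**
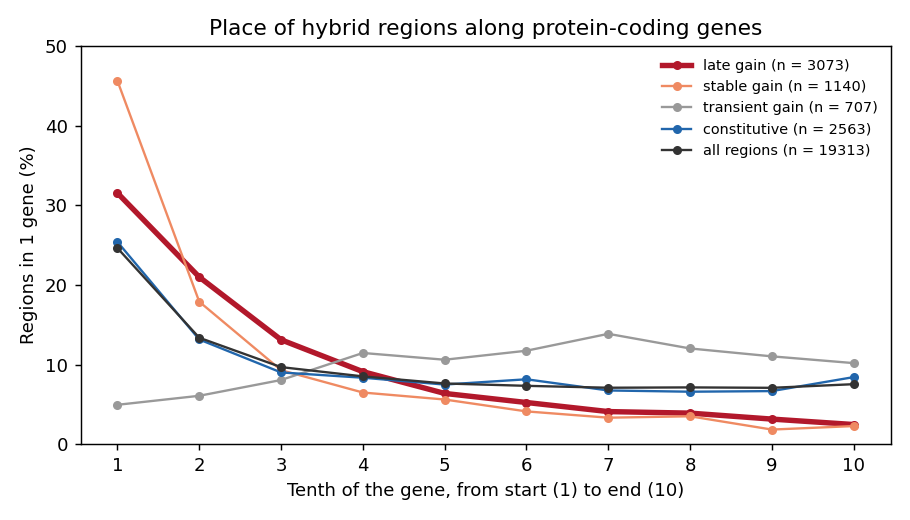
Share of regions in each 10% of the length of the protein-coding gene that holds their midpoint, from gene start to gene end, for late gain, stable gain, transient gain, constitutive and all regions in a single gene (points are percentages of each category). Late gains fall from 31.5% in the first bin to 2.47% in the last, below stable gains in the first bin (45.6%) and above them in each of the other bins.

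The distance varied less with gene length than that of all regions or of constitutive regions. In genes of up to 20 kb the late gain median was 5788.5 bp (468 regions), in genes of 20 to 100 kb it was 8926.5 bp (1692 regions), and in genes over 100 kb it was 10606 bp (913 regions). Over the same range of lengths the median of all regions went from 4716.5 to 11546 and then to 53692 bp, and that of constitutive regions from 4053 to 8023 and then to 60731 bp. Stable gains showed a like range nearer to the start, with medians of 3151.5, 4636 and 7916 bp. In the longest genes the late gain upper quartile was 33477 bp, so most of them still sat in the first part of the gene.

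**Figure D2:**
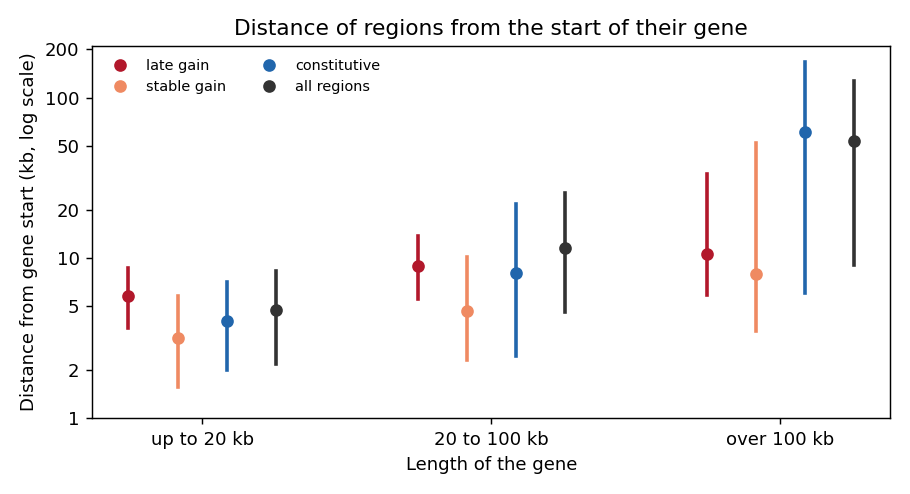
Distance of region midpoints from the start of their gene in kb (log scale) for genes of up to 20 kb, 20 to 100 kb and over 100 kb. Points are medians and lines join the quartiles. Late gain medians run from 5788.5 to 10606 bp across the classes of gene length, while all regions reach a median of 53692 bp in the longest genes.

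Where one gene held both kinds of gain, the late gain was usually the more distal one. In 323 genes with late and stable gains in the body, the median late gain lay farther from the start than the median stable gain in 254 (78.6%, Wilson interval 73.8 to 82.8) and nearer in 69. In 365 genes with late gains and constitutive regions, the late gain lay farther in 243 (66.6%, 61.6 to 71.2). Stable gains showed a similar order, farther than constitutive regions in 88 of 137 genes (64.2%, 55.9 to 71.8). Only regions with their midpoint in a single gene were counted. The rule bars late gains from places with an earlier peak, which stable gains and constitutive regions hold by definition. Where those lie near the start, the places left to a late gain of the same gene are mostly farther on. Stable gains are barred in the same way from places with an NT peak. The order is thus not independent of the rule, and how much of it the rule accounts for was not tested. The genes share libraries and are not replicates, so the intervals cover counting error only.

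The late gain peaks were of middle rank in the lists that chose them, which is given here as a description because the rule used these lists. The fold enrichment of the highest peak in a region had a median of 4.27 in replicate 1 (range 2.23 to 11.4) and 4.61 in replicate 2 (range 1.95 to 19.3). Ranked within its own list, that peak sat at a median percentile of 47.7 in replicate 1 (quartiles 23.5 and 66.3) and 62.0 in replicate 2 (37.7 and 78.9). Stable gains had medians of 70.9 and 88.6 and constitutive regions 89.9 and 94.3. The 60 min lists rank late gains below both other groups in each replicate.

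**Figure D3:**
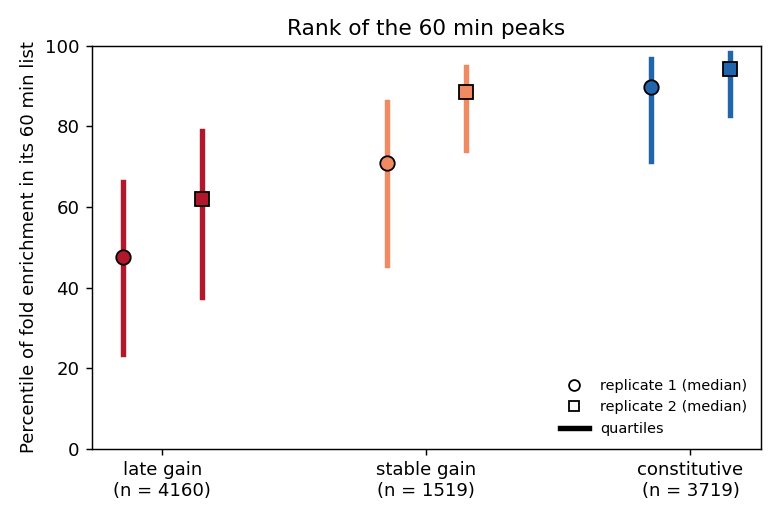
Percentile of the fold enrichment of the highest peak within its own 60 min list, for late gain, stable gain and constitutive regions in replicate 1 (circles) and replicate 2 (squares). Symbols are medians and bars join the quartiles. The late gain medians are 47.7 and 62.0, the lowest of the groups in both replicates.

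Single late gains were simple in shape. In 3836 of them (92.2%) each 60 min list held exactly 1 peak. The median region was 876 bp wide, compared with 633 bp for transient gains, 2404 bp for stable gains and 5787 bp for constitutive regions. Regions join peaks over all lists, and stable and constitutive regions need peaks in more lists, so these widths are not like for like. For the widest 60 min peak alone, replicate 1 had medians of 439 bp (late gains), 684 bp (stable gains) and 1685 bp (constitutive regions). The medians of replicate 2 were 714.5, 2179 and 4336 bp. Within late gains, the summits of both replicates lay a median of 189 bp apart (quartiles 65.8 and 438 bp), and 1370 (32.9%) agreed within 100 bp. Both replicates ranked 1319 (31.7%) above the middle of the list and 930 (22.4%) below it, and 24 were above the 90th percentile in both. Across members the ranks of both replicates had a Spearman correlation of 0.16, given as a description because the points share libraries.

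Just inside the rule, the lowest −log10 q of a member was 1.32 in each replicate, and 694 members (16.7%) had a lower value under 2 in one of their lists, while 2102 (50.5%) reached 3 in both. Just outside it were 3957 regions with a peak in both 60 min lists and in 1 of the 4 other lists. Of these, 2367 had that peak in 5 min replicate 2, at a median percentile of 58.9 there, 979 had it in NT replicate 2 (median percentile 51.7), 420 in 5 min replicate 1 (43.2) and 191 in NT replicate 1 (41.3). Among these 3957 regions, the peak outside the 60 min lists was most often in 5 min replicate 2, the longest of the earlier lists. Whether the length of that list accounts for this was not tested.

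Many late gains lay close to an earlier peak. The nearest peak of either NT list was a median of 5748.5 bp away and within 5 kb for 1924 members (46.3%). Stable gains were much the same, with 44.2% within 5 kb of an NT peak, while transient gains had 32.0%. The nearest peak of either 5 min list was a median of 3021 bp from a late gain and within 5 kb for 2736 (65.8%), a share measured for late gains only. The nearest other late gain was a median of 40681.5 bp away, though 1218 (29.3%) had one within 5 kb. Per chromosome, late gains made up between 8.96% of regions (chromosome 19, 218 of 2434) and 24.3% (chromosome X, 91 of 374).

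The highest ranked late gains of each class lay in genes of varied function. At GBA2, which encodes the non-lysosomal glucosylceramidase, the region chr9:35743630-35745586 had fold enrichments of 7.84 in replicate 1 and 8.73 in replicate 2, at percentiles of 94.4 and 93.2. It lies 4617 bp into the gene. At MMP14, a membrane-bound matrix metalloproteinase, the region chr14:23304582-23308729 had folds of 7.17 and 9.20 around a midpoint 887 bp past the start. Both regions were classed as promoter, and both had their midpoint inside the gene rather than ahead of it.

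Among terminator regions, EFNB1, which encodes the ephrin-B1 ligand, had folds of 7.47 and 11.4 at chrX:68059187-68063780. DYNLL2, a dynein light chain, had folds of 7.39 and 12.6 at chr17:56169543-56171420. The highest exon regions were in PIGT, a subunit of the enzyme that attaches GPI anchors (chr20:44054609-44056450, folds 7.22 and 6.14), and in NAGK, an N-acetylglucosamine kinase (chr2:71298326-71299176, folds 6.37 and 6.38). In all of these genes the region lay downstream of the start, 7277 bp in NAGK, 9702 bp in DYNLL2, 10806 bp in PIGT and 12620 bp in EFNB1.

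The strongest late gain of the intron class was in CHSY1, a chondroitin synthase, at chr15:101787337-101790057, 3556 bp from the start. Its folds of 9.73 and 15.8 put it at percentiles of 97.7 and 99.0. SDHAF4, an assembly factor of succinate dehydrogenase, followed with folds of 9.07 and 10.2 at chr6:71282248-71285924, 7466 bp from the start. Between genes the strongest were chr4:134649625-134650514 (folds 7.47 and 7.73), 467418 bp from PABPC4L, and chr8:107063985-107065748 (folds 7.57 and 6.83), 217505 bp ahead of OXR1. All 10 of these regions overlapped a peak of the RNase H-treated 60 min library of replicate 2, and 2 of them, PIGT and SDHAF4, also in replicate 1. In the replicate 2 library, 65.5% of all late gains and 65.3% of all regions were met by a peak. Its folds were above the DRIP folds of replicate 2 at GBA2 (10.3), MMP14 (9.76) and PIGT (10.0), and below them at the rest.

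At the level of genes, 4298 of 20163 protein-coding genes (21.3%) had a late gain in the body or within 10 kb, and 2985 had one that overlapped the body. Most of the latter held a single one (2271), while 574 held 2, 107 held 3, 26 held 4 and 7 held 5. Genes with a late gain in the body had greater lengths, with a median of 51980 bp against 32909 bp for genes with any region in the body. Of the 4298 genes, 2237 (52.0%) also had a region called in both NT lists within 10 kb, compared with 63.7% of the genes with any region. The genes with any region include those that qualify through an NT region alone, so these shares are not like for like. A peak in at least 1 NT list was present for 3739 (87.0%), a share that was not measured over other genes.

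BCAS2, a core component of a spliceosome-associated complex, was the only one of the 10 genes with the most late gains that had no earlier DRIP peak. Over its 14073 bp and the 10 kb on each side, no DRIP peak was called in either NT list or either 5 min list, and 6 and 7 were called at 60 min, although the RNase H list of 5 min replicate 2 held 2 peaks. They formed 5 late gain regions between 3398 and 10887 bp from the start, with folds of 3.20 to 4.22 in replicate 1 and 3.47 to 5.26 in replicate 2. The peaks were weak in replicate 1, where the 5 regions ranked between the percentiles 7.90 and 44.6.

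Of the other genes with the most late gains, THEM4, an acyl-CoA thioesterase, held 5 between 8376 and 19919 bp from its start, with 0 and 1 peaks in the NT lists, 0 and 5 at 5 min and 8 and 16 at 60 min. GTF2F2, the small subunit of the general transcription factor TFIIF, held 5 in the first 13850 bp of a gene of 164384 bp. One of these, chr13:45701525-45702233, had folds of 8.11 and 8.82 and stood above the 90th percentile in both lists. TBCD, a cofactor of tubulin folding, held 5 within 16268 bp of the start of a gene of 193873 bp, but had 10 and 15 NT peaks elsewhere within 10 kb. C8orf76 also held 5, and NFATC2IP and RSKR held 4 each.

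The unnamed gene models ENSG00000284461 and ENSG00000285827 held 5 each, and the readthrough model HSPE1-MOB4 held 4. These models overlap other genes (RABGEF1, ATP5MG and KMT2A, and HSPD1 and MOB4), so the same late gains counted for more than 1 gene.

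CDKN1A, which encodes the cyclin-dependent kinase inhibitor p21 and is a target of p53, had peaks before treatment and gained others around them. Inside the gene its NT peaks lay within a stretch from 0.379 to 6.435 kb past the start, with highest folds there of 4.63 in replicate 1 and 5.93 in replicate 2. At 5 min 1 peak of 6056 bp filled that stretch in each replicate, with folds of 7.66 and 15.1, and at 60 min the folds there were 14.9 and 26.5. The RNase H-treated 60 min library of replicate 2 had a fold of 34.6 over the same stretch, and that of replicate 1 had a shorter peak of 4.35. This constitutive region is not a late gain, and its values are given as the setting of the members beside it.

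The late gains lay on both sides of it. The first, chr6:36635418-36636005, was 8525 bp upstream of the gene and had 60 min folds of 3.50 and 4.32. The next, chr6:36651291-36653708, began 7.054 kb past the start in an intron, beyond the constitutive region, with folds of 5.75 and 9.52. The last, chr6:36655691-36657700, lay 1582 bp past the gene end with folds of 6.95 and 9.41, and was classed as promoter because it falls within 10 kb ahead of another gene. It began 11.454 kb past the start, close to a peak of 5 min replicate 2 (fold 3.59) that ended at 11.387 kb. All 3 late gains overlapped RNase H peaks of 60 min replicate 2, at folds of 4.59, 8.54 and 6.46, and none overlapped an RNase H peak of replicate 1.

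**Figure D4:**
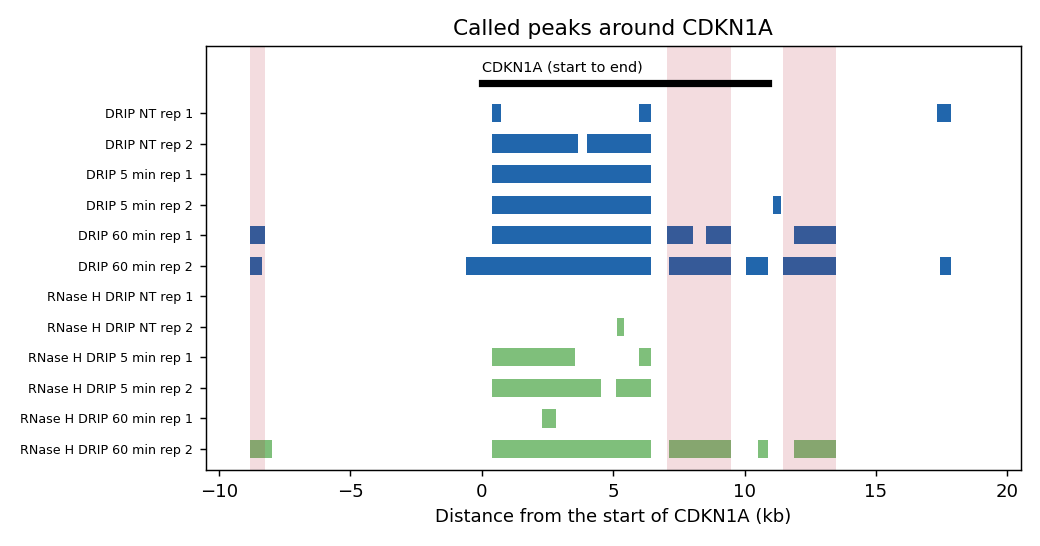
Peaks called in the 6 DRIP lists (blue) and the 6 RNase H DRIP lists (green) by distance in kb from the start of CDKN1A, whose 10.878 kb are drawn in black at the top. Shaded columns are the 3 late gain regions, which hold DRIP peaks at 60 min alone, on either side of a stretch called in all 6 DRIP lists.

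Other p53 targets had late gains too. Of 30 listed, 12 had one in the body or within 10 kb (40.0%), beside 21.3% of all protein-coding genes. Among genes with a region of any kind there, it was 41.4% of the 29 listed and 34.3% of all 12544. TNFRSF10B, a receptor for the death ligand TRAIL, had a late gain 11142 bp past its start (folds 5.87 and 6.05). MDM2, the ubiquitin ligase of p53, had one 4967 bp past its start at chr12:69206633-69207215 (folds 6.94 and 5.71). The others were TIGAR, TP53I3, PHLDA3, DDB2, AEN, SESN2, RRM2B, SERTAD1 and SESN1. All 12 of these genes also had a peak in at least 1 NT list within 10 kb, beside 87.0% of all genes with a late gain.

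Among 24 immediate early genes, 9 had a late gain within 10 kb (37.5%), or 39.1% of the 23 with any region. EGR1, a zinc finger transcription factor, had one 2877 bp past its end at chr5:137807072-137808666, with folds of 6.68 and 12.3. Its relative EGR2 had one over the gene at chr10:64572471-64574055 (folds 6.27 and 12.4) and another downstream near ADO (folds 5.34 and 5.01). IER5, a nuclear regulator induced by serum and stress, had 1 across its end and 1 beyond it, with folds of 5.56 and 5.80 in replicate 1 and 7.12 and 9.36 in replicate 2. A late gain overlapped the body itself in 3 of the 9, and most of the others lay past the gene end.

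Of 24 genes for Top1cc removal and repair, 10 had a late gain (41.7%), or 43.5% of the 23 with any region. They included ERCC1, a subunit of a structure-specific nuclease (folds 6.54 and 5.08), NBN and RAD50, which belong to the break-sensing MRN complex, and TDP2, a phosphodiesterase that frees topoisomerase from DNA. APTX, XRCC1, PIAS4, RBBP8, PARP1 and LIG3 were the others. The ERCC1 region also counted for the immediate early gene FOSB, with its midpoint 362 bp past the FOSB end. NBN had 2 late gains upstream of the start, in DECR1, the higher at folds of 6.81 and 4.83 and the other at 4.80 and 4.42. APTX also had 2 stable gain regions within 10 kb.

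Of 27 genes for R-loop resolution, 8 had a late gain (29.6%), or 32.0% of the 25 with any region, which is below the 34.3% of all such genes. AQR, a helicase of the splicing machinery, had one 2484 bp ahead of its start (folds 5.83 and 9.74). BLM, a RecQ helicase, had one 12290 bp into the gene (folds 5.50 and 4.96) and no NT peak within 10 kb. DDX23, another helicase of the spliceosome, had one upstream of it in RND1 (folds 4.92 and 5.28). FANCA, WRN, DHX9, RNASEH1 and THOC2 were the rest.

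The remaining lists gave shares from 16.7 to 40.0%. Counted only over genes with any region, the range was narrower, from 25% for translation factors to 44.4% for heat shock and chaperone genes. It was 35% for RNAPII elongation genes, beside 34.3% of all such genes. On that count the 7 epithelial markers (28.6%) were below the 3 markers of other cell types (33.3%). Of 20 heat shock and chaperone genes 8 had a late gain (40.0%), led by DNAJB6, a DNAJ co-chaperone (folds 5.58 and 5.62), DNAJB1 and HSPB1. Of 22 RNAPII elongation genes 7 had one (31.8%), led by CDK12, a kinase of the RNAPII tail, 4116 bp past its start (folds 5.77 and 11.1), then CTR9, a PAF1 complex subunit, and TCEA2, a TFIIS paralog. Of 24 translation factor genes 6 had one (25%), led by EIF2S2, a subunit of initiation factor eIF2, which shares its late gains with RALY on the other strand, then EEF1B2 and EIF4B. Of 7 epithelial markers CDH1 and EPCAM had one (28.6%), and of 6 annotated markers of other cell types GFAP did (16.7%), in the overlapping neighbourhood of EFTUD2. In each list other than the last, at least 90% of the genes had a region of some kind within 10 kb, compared with 62.2% of all genes, so nearly every gene in them could be counted with some category of region.

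The DNA of late gains was of low GC content for a hybrid region. The median over regions was 45.9% GC (quartiles 42.0 and 50.1), between that of transient gains (40.3%) and that of all regions (49.0%), while stable gains had 44.1% and constitutive regions 53.3%. The observed CpG count was 0.273 of that expected from base composition. GC skew, the excess of G over C on the coding strand, had a median of 0.037 over 1 kb and was positive in 63.2% of the 3315 regions with a single coding strand, next to 62.7% of all such regions. Runs of 3 or more G had a median of 12 per kb on the coding and 11 on the template strand. The medians were 11 and 11 in stable gains and 10 and 9 in transient gains. They were 15 and 14 in all regions and 20 and 17 in constitutive regions.

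Some peak edges fell at the sites of the restriction digest. The median restriction fragment under a late gain was 1752.5 bp, and 26.8% of peak edges in replicate 1 and 36.5% in replicate 2 coincided with a cutting site. In 682 members (16.4%) the highest peaks of both replicates began at the same base, and 668 of these starts (97.9%) were at a cutting site. Both edges agreed to the base in 7 members. The left and right edges of 3 such regions are shown as 30 bases of GRCh37, plus strand, with the site in capitals.
RHBDF1 region, left edge, Bsr GI, chr16:106392-106421: caatctgcacatTGTACAgaacagcccagg
RHBDF1 region, right edge, Bsr GI, chr16:110060-110089: tgatggacaggcTGTACAaagggcaggtgc
MRPS33 region, left edge, Hind III, chr7:140706275-140706304: ctcctttccacgAAGCTTctttagtcgttt
MRPS33 region, right edge, Hind III, chr7:140707763-140707792: tggacagaaagaAAGCTTtctggcgactct
Intergenic region near ANKRD7, left edge, Eco RI, chr7:118268771-118268800: ggtcaatctcatGAATTCttagaaatctag
Intergenic region near ANKRD7, right edge, Ssp I, chr7:118269185-118269214: tcattaatcaatAATATTaataaaaactac

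These 3 regions were 3672, 1492 and 416 bp wide, the length from one cutting site to another. In such regions the width reports where the enzymes cut and not where the hybrid ends.

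After RNase H digestion, peaks were still called at most late gains in 60 min replicate 2 and at few in replicate 1. A peak of the RNase H-treated 60 min library met 36 late gains (0.865%) in replicate 1, beside 2.78% of all regions, and 2726 (65.5%, Wilson interval 64.1 to 67.0) in replicate 2, beside 65.3% of all regions. In the 5 min libraries it was 22 (0.529%) beside 2.98%, and 683 (16.4%) beside 43.3%. In the NT libraries it was 1 (0.0240%) beside 0.386%, and 75 (1.80%) beside 13.2%. The late gain share was below that of all regions in NT and at 5 min, in both replicates, and level with it at 60 min in replicate 2 only. In that list the share was 91.3% for stable gains, 95.5% for constitutive regions and 17.0% for transient gains, which have no 60 min DRIP peak. The rule drops regions with an NT or 5 min DRIP peak, so the lower shares in those conditions are not independent of it. Every late gain has a peak in both 60 min DRIP lists, while 18661 of the 28518 regions do. All regions were also wider, with a median of 1394 bp against 876 bp for late gains. The level shares in 60 min replicate 2 are therefore not like for like.

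**Figure D5:**
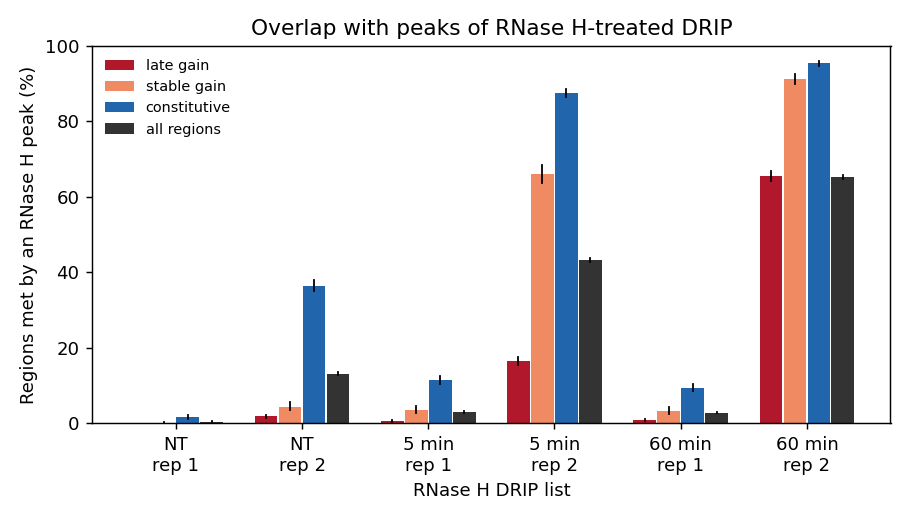
Percentage of late gain, stable gain, constitutive and all regions met by a peak in each of the 6 RNase H DRIP lists (bars), with 95% Wilson intervals (lines, counting error only). Late gains go from 1.80% in NT to 65.5% at 60 min in replicate 2 and stay under 1% in replicate 1.

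The share of late gains met by RNase H peaks was higher at 60 min than in NT in both replicates, by very unequal amounts. Members were chosen on DRIP peaks of the same conditions, and both kinds of library share 6 inputs, so this direction is not independent of the choice, and all regions moved the same way. The mean over libraries was 33.2% ± 45.7 (SD, n = 2) at 60 min and 0.913% ± 1.26 (SD, n = 2) in NT. The difference of 32.3 percentage points was 0.841 in replicate 1 and 63.7 in replicate 2, and did not pass a two-sided exact permutation test over libraries (p = 0.667), in which 2 libraries against 2 cannot go below 0.33. For 5 min against NT the difference was 7.56 points (exact permutation p = 0.667). The lists behind these shares differ in length, with 473 and 15790 RNase H peaks in NT, 3439 and 50353 at 5 min and 5392 and 67188 at 60 min. With every RNase H list shortened to its 473 peaks of highest fold enrichment, so that few regions could be met at all, the difference was 0.0721 points.

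Late gains met by an RNase H peak of 60 min replicate 2 were wider and ranked higher. Those 2726 had a median width of 1056 bp and median percentiles of 50.1 and 69.4, and the 1434 not met had 663.5 bp and 39.7 and 45.9. The DRIP summit of replicate 2 lay inside the RNase H peak in 2051 members (49.3%). In all, 1318 members (31.7%) were met by no RNase H list. Of these, 52.2% lay in introns, 23.2% in promoter windows, 3.57% in exons and 7.44% between genes, while those met by the 60 min list of replicate 2 had 55.3%, 24.4%, 1.91% and 2.90%. Among regions in a single gene the 1041 not met by the 60 min list of replicate 2 had a median of 9677 bp from the start, against 8305.5 bp for the 2032 that were met.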

How the data were processed

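Genomic DNA of HCT116 cells was profiled by DRIP-seq in 18 samples, and the 12 peak lists of the DRIP and RNase H DRIP libraries were used here. Per the labels and the study's methods, the authors aligned reads to hg19 with BWA, removed duplicates and blacklisted regions, and called peaks per library against its input with MACS2. Replicates were not pooled. The study then normalised read counts by library size and spike-in and kept regions that differed from the RNase H libraries. It took its own late gains from a differential test of those counts. These steps were not applied here, so the late gains of this report need not match the study's category of that name. The deposited columns are a fold enrichment (a ratio over input), −log10 p and −log10 q values, and a score that was not used. No depth or calling threshold is given in the lists.

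Peaks were joined into regions where at least 1 bp was shared, with NumPy 2.4.6, pandas 2.3.3 and SciPy 1.17.1 under Python 3.11.15, and figures were drawn with Matplotlib 3.10.9. Because lists differ in length, fold enrichment was also ranked as a percentile within its list. GRCh37 sequence was read with pysam 0.24.0, and the sequences of the other position classes are not reported here. Genes were the 20163 protein-coding models of GENCODE release 44 mapped to GRCh37, and a region took the class of its midpoint, in the order promoter, terminator, exon, intron and intergenic. The region rules were tested on simulated data. Shares of late gains met by RNase H peaks were compared between NT and treated libraries by two-sided exact permutation over libraries, and regions were not tested against each other.

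Named items were the 2 regions of each class with the highest lower percentile over both 60 min lists, the 10 genes with the most late gains in the body, and up to 3 genes of each of 9 gene lists by the same percentile. The remaining genes of 3 lists are named to complete a count, and the regions shown for their edges were chosen after their values were seen. Of the listed markers of other cell types, PECAM1 was not matched. The members and the lists were chosen with earlier results of these data known. Alternatives were equally long lists, a minimum −log10 q of 3, absence of RNase H peaks, shared segments, joining of peaks up to 1000 bp apart, a larger overlap, a looser absence, any overlap with a gene feature, and leaving out each replicate. The distance from the gene start was added as a result after the data were seen.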

Additional observations from a re-analysis of the deposited data

How the results depend on the processing

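The number of late gains depended strongly on how presence and absence were set. It was 4160 as reported, 2492 with lists of equal length, 1318 without regions met by any RNase H list, 1430 without those met at 60 min, 7004 with shared segments, 2302 with peaks up to 1000 bp apart joined and 9791 with a looser absence (no peak shared by both replicates). With 1 replicate left out, where each treatment has a single list, it ranged from 23753 to 38616. The intron share of 54.4% became 52.5% with equal lists, 52.2% and 52.7% without RNase H peaks in any list or at 60 min, 57.3% with joined peaks, 49.6% with the looser absence and 78.8% when any overlap counted, and ranged from 47.0 to 50.5% with a replicate left out. The promoter share of 23.6% became 25.3% with equal lists, 22.2% without RNase H peaks at 60 min, 25.4% with shared segments, 20.6% with joined peaks, 26.4% with the looser absence and 29.0% with any overlap, and ranged from 22.5 to 23.6% with a replicate left out. Median GC was 48.1% with shared segments and 44.8% with joined peaks, and 45.3 to 47.8% with a replicate left out. The widest 60 min peak had a median width of 576.75 bp as the mean of both lists, 886 bp with equal lists, 803.5 bp with shared segments, 816 bp with joined peaks and 410 to 432 bp with a replicate left out. The median distance from the gene start, 8586 bp, was 7984 bp at −log10 q of at least 3, 7544 bp with equal lists, 9207.5 and 9676.5 bp without RNase H peaks in any list or at 60 min, 7970 bp with shared segments, 9448 bp with joined peaks, 8462 bp with the larger overlap, 8238 bp with the looser absence, and 9938.5 to 10084.5 bp with a replicate left out. The cause of these shifts was not tested.

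Same-numbered libraries were paired as a replicate block, and the difference between 60 min and NT in the share met by RNase H peaks was then 32.3 points (exact sign-flip p = 0.5, the smallest it can give). With either replicate left out the difference was 0.770 to 33.1 points, and with RNase H lists of equal length (473 peaks each) it was 0.0721 points. All 10 named regions were still found in every alternative except those that drop RNase H peaks, which left 0, and joined peaks, which left 6.

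The peak lists carry no depth, and the read counts that the study reports for its DRIP-seq libraries were not used here. From the lists, late gains cannot be separated from earlier peaks that fell just below the calling threshold. Restriction fragments limit the placing of a peak.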
